A study of Arabidopsis thaliana with 9 samples.

Results

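The transcript and isoform levels of wild-type Arabidopsis thaliana seedlings were described from 3 of the 9 libraries of a study of RNA processing and gene silencing mutants. The 3 libraries were chosen by genotype: they are the wild-type replicates 1, 2 and 3 of accession Col-0, which carry no mutant allele. Whole seedlings of 14 days, grown on 1/2MS medium, gave polyadenylated RNA for a stranded mRNA library kit, and the labels call the replicates of a genotype independent biological ones. The other 6 libraries, of the smd1b-3 and prp39a-3 mutants, entered no value. All values are TPM, a length-adjusted share of a library's transcripts scaled to a total of 1000000, so levels can be set side by side between genes. TPM keep no depth, and no interval for counting error is given.

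A green seedling at this age combines leaves that photosynthesise, a root system that takes up water and ions, and a shoot apex. In leaf cells, light is captured by chlorophyll-binding antenna proteins encoded by nuclear gene families, carried through the photosystems as electrons, and used by the Calvin cycle, whose first enzyme is rubisco. Many plant genes yield several transcript isoforms, through retained introns or alternative splice sites, and SR proteins and other RNA-binding proteins regulate their own messages in this way.

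The table holds 82190 isoforms of 34212 genes. Summed per gene, 20517, 20680 and 20420 genes reached 1 TPM in replicates 1, 2 and 3. On the mean over the libraries 20559 genes, 60.1% of those in the table, reached 1 TPM and are called detected below, and 20048 genes reached it in each library. A further 7450 genes (21.8%) were listed at 0 in all 3 libraries. The median detected gene had 15.6 TPM, with quartiles of 5.99 and 36.3 TPM. At the upper end, 1689 genes had at least 100 TPM, and 84 genes with at least 1000 TPM held 23.7% of all TPM. The 10 most abundant genes of a library took 8.19%, 7.17% and 8.55% of its TPM in replicates 1, 2 and 3, which is 7.97 ± 0.716% (SD, n = 3), and the 1000 most abundant took 52.9%, 50.8% and 53.0%. Protein-coding genes held 98.5% of the TPM. The 133 plastid genes of the table summed to 2890, 2036 and 2308 TPM and the 143 mitochondrial genes to 187, 139 and 197 TPM, low sums in libraries selected for polyadenylated RNA. Over the detected genes, pairs of libraries correlated on log2(TPM + 0.5) with Pearson's r of 0.9873 to 0.9880, a description across genes, which are not independent replicates.

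The most abundant transcripts were those of the photosynthetic apparatus. Of the 10 genes highest on average, 9 belonged to the lists of antenna, photosystem and carbon fixation genes, as did 18 of the top 20, 34 of the top 50 and 44 of the top 100. The 69 genes of these 3 lists took 18.2%, 15.6% and 18.2% of the TPM in replicates 1, 2 and 3 (17.3 ± 1.46%). CAB1 (AT1G29930, chromosome 1, 10477885 to 10479114, plus strand in RefSeq's annotation of TAIR10.1), a chlorophyll a/b-binding protein of the main antenna of photosystem II, led all genes. It had 21866 TPM in replicate 1, 20440 TPM in replicate 2 and 25083 TPM in replicate 3, so a single gene made up 2.19%, 2.04% and 2.51% of the TPM. LHB1B2 (AT2G34420), of the same protein family, followed with 15042, 12737 and 15275 TPM. RBCS1A (AT1G67090), a small subunit of rubisco, had 8508, 6327 and 8085 TPM, again lowest in replicate 2. The ranges of these 3 genes did not overlap one another. From the next gene down the levels were closer together. LHCA4, an antenna protein of photosystem I, had 6016 ± 479 TPM (SD, n = 3). PSBR, a photosystem II subunit, had 5599 ± 487 TPM. The gap between these means is smaller than the SD of either gene. LHCA4 nonetheless lay above PSBR in each library, at 6206, 5471 and 6370 TPM against 5944, 5041 and 5811 TPM.

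**Figure D1:**
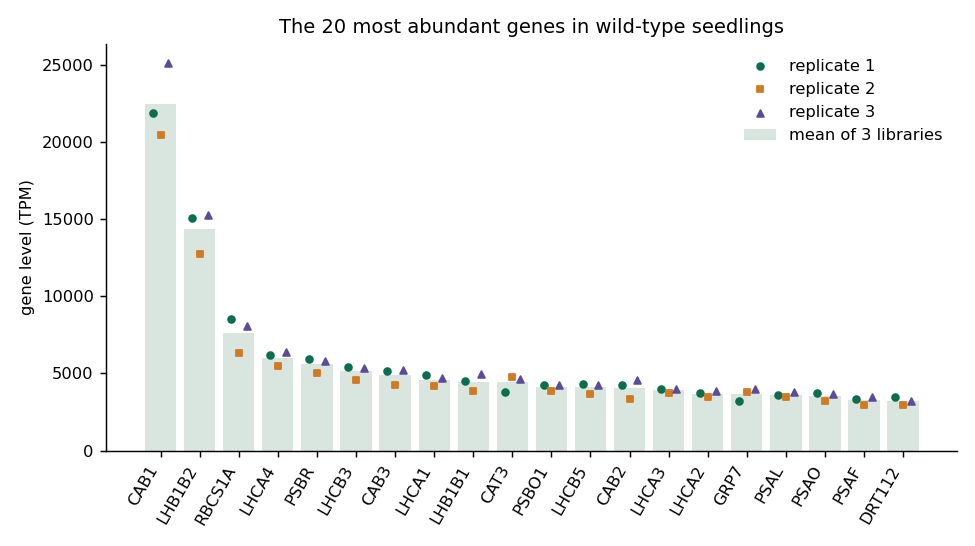
Level in TPM (linear axis from 0) of the 20 genes with the highest mean, with bars for the mean of 3 wild-type libraries and symbols for each library. CAB1, LHB1B2 and RBCS1A stand above the rest, and replicate 2 is the lowest for most photosynthesis genes but not for CAT3 and GRP7.

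The rest of the top 20 was made of LHCB3, CAB3, LHCA1, LHB1B1, LHCB5, CAB2, LHCA3 and LHCA2, which are antenna genes at 3695 to 5132 TPM, the photosystem genes PSBO1, PSAL, PSAO and PSAF at 3248 to 4128 TPM, the plastocyanin gene DRT112 at 3216 TPM, and 2 genes outside the photosynthesis lists. CAT3, a catalase that breaks down hydrogen peroxide, had 3828, 4784 and 4634 TPM in replicates 1, 2 and 3. GRP7, a clock-controlled glycine-rich RNA-binding protein, had 3232, 3797 and 4008 TPM. Both were lowest in replicate 1, where the photosynthesis genes were not. CAB1, CAB2 and CAB3 lie side by side on chromosome 1, and their coding sequences are 95.7% to 96.4% identical in pairwise alignment. LHB1B1 and LHB1B2 share 91.4%, and RBCS1B and RBCS2B 97.3%. The quantifier divides reads that fit several such copies, so the split within each family is less certain than its sum.

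Upstream sequences are shown for 3 genes as examples, which do not stand for their lists. They are the most abundant gene, the most abundant gene whose window held both the I-box core GATAAG and the G-box CACGTG, motifs known from light-regulated plant promoters, and the most abundant ribosomal protein gene whose window held both TGGGCC (site II) and AAACCCTA (telo box), motifs known from genes of growing cells. The last 2 were picked by that rule after motif counts were seen, so their windows hold the motifs by choice. Each is the 250 bases before the annotated start, read 5′ to 3′ on the gene's strand from the TAIR10.1 assembly in RefSeq, with these 4 motifs in capitals where present on either strand, and TATAAA where it lies on the gene's strand in the last 50 bases. The capitals of different motifs do not overlap. CAB1 is chr1:10477635-10477884 on the plus strand, PSBQ-2, a subunit of the oxygen-evolving complex at 2743 ± 164 TPM, is chr4:2673244-2673493 on the minus strand, and AT4G27090, a ribosomal protein L14 gene with 579, 519 and 491 TPM in replicates 1, 2 and 3, is chr4:13595253-13595502 on the minus strand.
CAB1: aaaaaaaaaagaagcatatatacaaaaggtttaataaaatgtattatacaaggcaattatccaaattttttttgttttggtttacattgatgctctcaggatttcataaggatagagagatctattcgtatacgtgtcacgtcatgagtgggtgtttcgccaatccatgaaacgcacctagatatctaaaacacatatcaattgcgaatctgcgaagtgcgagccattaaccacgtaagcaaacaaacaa
PSBQ-2: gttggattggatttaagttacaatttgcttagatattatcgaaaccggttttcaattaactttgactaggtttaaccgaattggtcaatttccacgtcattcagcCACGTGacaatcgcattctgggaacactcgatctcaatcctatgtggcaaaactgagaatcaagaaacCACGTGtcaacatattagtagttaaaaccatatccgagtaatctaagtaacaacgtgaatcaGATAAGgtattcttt
AT4G27090: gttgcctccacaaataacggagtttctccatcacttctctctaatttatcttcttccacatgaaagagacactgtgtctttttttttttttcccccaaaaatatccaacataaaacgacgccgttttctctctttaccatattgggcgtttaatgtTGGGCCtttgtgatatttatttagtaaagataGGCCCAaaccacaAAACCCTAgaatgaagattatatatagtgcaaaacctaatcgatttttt
None of these motifs is in the CAB1 window, nor in that of RBCS1A, which is not shown. Whether the annotated start is the start in use was not checked. A motif missing from a window may therefore still lie in the gene's promoter. In the PSBQ-2 window CACGTG begins 145 and 77 bases before the start and GATAAG 15 bases before it. In the AT4G27090 window TGGGCC begins 94 bases before the start, its reverse complement 62 and AAACCCTA 49. Searched on both strands, GATAAG was in 12.3% of all 27357 windows. It was in 31% of the windows of the 100 most abundant nuclear protein-coding genes and in 16.4% of the 1000 most abundant. Its share was 23.2% in the 69 photosynthesis windows and 14.5% in the 373 ribosomal protein windows. CACGTG was in 17.4% of the 69 photosynthesis windows, 15% of the 100 most abundant and 3.5% of the ribosomal protein windows, against 6.49% of all. TGGGCC was in 43.4% of the 373 ribosomal protein windows and 15.9% of the photosynthesis windows, against 13.7% of all, and AAACCCTA in 16.4% and 0%, against 4.50% of all. TATAAA on the gene's strand in the last 50 bases was in 17% of the 100 most abundant and 10.1% of the 69 photosynthesis windows. It was in 11.0% of all. A match is a description of letters and not of a bound site.

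The levels of whole families followed the order of light capture, electron transport, carbon fixation and photorespiration. All 20 antenna genes were detected, with a median of 3802 TPM against 15.6 TPM for all detected genes, and their sum was 93146, 81563 and 97045 TPM in replicates 1, 2 and 3, or 9.06% of all TPM. The family nonetheless spanned 3 orders of size: LHCB4.3, a minor form of the antenna protein CP29, had 6.28 ± 0.594 TPM, and LHCA6, a linker of photosystem I to the NDH complex, 82.2 ± 8.49 TPM. LHCA5, another minor photosystem I antenna protein, had 136 ± 10.4 TPM, and the other 17 members had at least 903 TPM. The 29 measured photosystem and electron transport genes had a median of 2093 TPM and 6.14% of the TPM. ATPC1, listed with them, was not analysed here. The least abundant were PETE1, the minor plastocyanin, at 288 ± 4.86 TPM, and NPQ4, the PsbS protein of photoprotection, at 388 ± 31.0 TPM. The major plastocyanin gene DRT112 exceeded PETE1 in every library. The 20 carbon fixation genes had a median of 609 TPM and 2.11% of the TPM, led by RBCS1A, RBCS3B at 2655 ± 476 TPM and rubisco activase (RCA) at 1846 ± 150.0 TPM. At the low end were RBCS1B at 216 ± 40.7 TPM and the aldolase FBA1 at 213 ± 21.2 TPM. In the RBCS family, RBCS1A lay above RBCS3B, and RBCS3B above RBCS2B and RBCS1B, in each library. Photorespiration, which recycles the product of rubisco's reaction with oxygen, had 13 of 13 genes detected at a median of 318 TPM. SHM1, a mitochondrial serine hydroxymethyltransferase, led with 834 ± 70.6 TPM and the aminotransferase GGT1 had 826 ± 48.1 TPM, a smaller gap than the spread of either gene. The glycolate oxidase GOX1 had 591 ± 8.24 TPM. The lowest were the glycerate kinase GLYK at 99.1 ± 7.17 TPM and GLDP2, a glycine decarboxylase subunit, at 86.8 ± 3.62 TPM.

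Markers of the other organs and tissues of a seedling were present at lower levels, and markers of flowers and seeds were near 0. In these bulk samples, fewer cells of a type and less RNA per cell cannot be told apart. Of 17 root markers 13 were detected, with a median of 7.40 TPM. PYK10, a beta-glucosidase of root endoplasmic reticulum bodies, stood far above the rest with 2940, 3203 and 2509 TPM and was the 26th most abundant gene of all. The peroxidase PRX44 had 75.6, 119 and 61.0 TPM, and PHO1, which loads phosphate into the xylem, 59.1 ± 6.88 TPM. The iron transporter IRT1 and the nitrate transporter NRT2.1 averaged 0.284 and 0.271 TPM, and IRT1 was at 0.721 TPM in replicate 1, above 0.0179 and 0.113 TPM in the other libraries. All 16 epidermis, stomata and trichome markers were detected, from the lipid transfer protein LTP1 at 705 ± 81.8 TPM, the wax enzyme KCS6 at 187 ± 3.92 TPM and LTP2 at 67.3 ± 12.3 TPM to the stomatal regulator MUTE at 1.73 ± 0.251 TPM and the trichome regulator GL1 at 1.3 ± 0.397 TPM. All 11 phloem and xylem markers were detected too. The phloem lectin PP2-A1 had 187 ± 15.2 TPM, the sucrose loader SUC2 133 ± 4.19 TPM and the xylem protease XCP2 55.6 ± 4.23 TPM, while the vessel regulators VND6 and VND7 had 1.56 ± 0.243 and 1.16 ± 0.0709 TPM. Of 10 shoot meristem and cell cycle markers 7 were detected, led by the receptor kinase CLV1 at 42.4 ± 3.94 TPM, the mitotic kinase CDKB2;1 at 19.1 ± 2.2 TPM and the organ growth regulator ANT at 15.2 ± 0.738 TPM. CLV3, which encodes the ligand of CLV1, was at 0.0631 TPM in replicate 3 and listed at 0 in the others, and the stem cell regulator WUS was listed at 0 in all 3. Of 13 floral organ and pollen markers 2 were detected, the MADS-box genes SEP3 at 5.42 ± 1.12 TPM and SHP1 at 1.41 ± 0.220 TPM. STK averaged 0.0119 TPM, and the pollen gene VGD1 was listed at 0 in each library. None of 16 seed and embryo markers was detected: the highest mean, of the seed storage protein CRA1, was 0.284 TPM, and EM1, SESA3 and SESA5 were listed at 0.

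**Figure D2:**
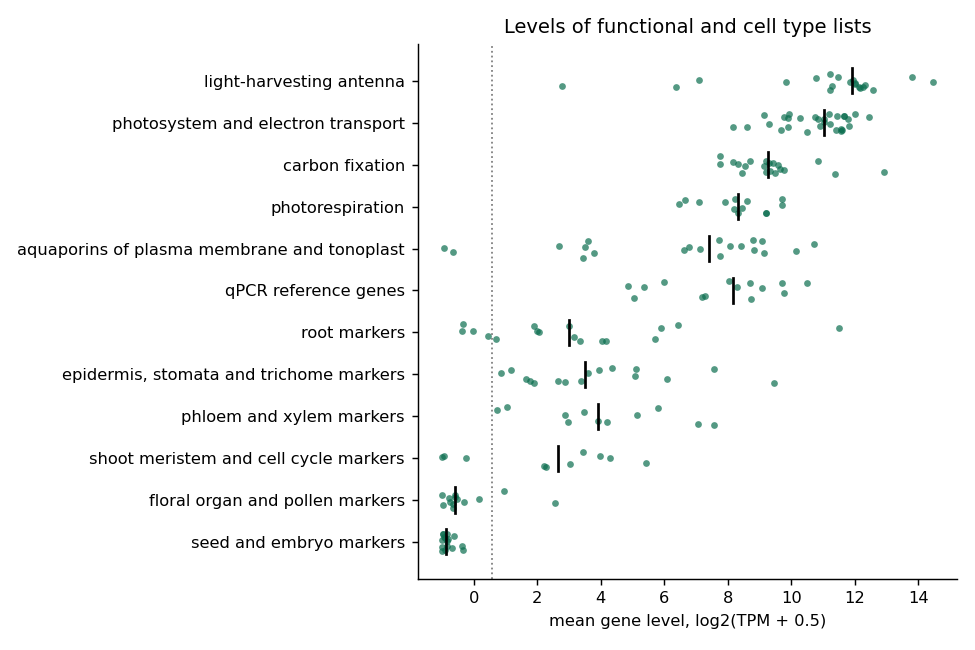
Mean level over 3 wild-type libraries, as log2(TPM + 0.5), of the members of 12 lists (points, spread vertically for visibility) with the median of each list (bar); the dotted line marks 1 TPM. Antenna and photosystem genes lie farthest right, tissue markers of the seedling in the middle, and all seed markers left of the line.

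Water channels and common reference genes were each spread over a wide range of levels. Of 20 aquaporins 18 were detected. The tonoplast channels TIP1;2 and TIP2;1 led with 1660 ± 142 and 1127 ± 92.1 TPM, followed by the plasma membrane channel PIP1;2 at 562 ± 31.0 TPM. The seed tonoplast forms TIP3;1 and TIP3;2 averaged 0.132 and 0.0156 TPM. All 14 genes commonly used as references for quantitative PCR were detected, from the polyubiquitin UBQ10 at 1443 ± 89.3 TPM, the elongation factor EF1A at 866 ± 56.0 TPM and GAPC2, a cytosolic glycolytic dehydrogenase, at 833 ± 92.2 TPM down to TIP41L at 32.1 ± 1.1 TPM and MON1 at 28.6 ± 2.53 TPM. The ubiquitin-conjugating enzyme gene UBC9 had 144, 146 and 143 TPM, an SD of 0.02 on the log2 scale, smaller than that of all but 1.82% of the 8631 genes at 20 TPM or more. The actin genes ACT2 and ACT8 had SDs of 0.18 and 0.21, at the 86.2 and 90.2 percentiles of those genes. UBC9 and these actins were named after their values were seen.

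Between libraries, the median SD of a detected gene was 0.11 on the log2(TPM + 0.5) scale, with a coefficient of variation of 8.12%. It was 0.16 for the 4446 genes at 1 to 5 TPM, 0.10 for the 6942 genes at 20 to 100 TPM and 0.13 for the 84 genes at 1000 TPM or more. The 8 least variable of the genes at 20 TPM or more, picked as the extreme of 8631, were AT5G65495, PYM, CLPR1, PAA2, AT4G33480, AT2G20725, CKB2 and AT5G43260. PYM, a partner of the exon junction complex proteins Y14 and MAGO, had 35.4 TPM in each library, and CLPR1, a plastid protease subunit, 207 TPM in each. The 8 most variable were AT1G21313, AT4G39675, ADH1, PDC1, PCR1, PR1, FTM1 and SUS4, with SDs of 1.06 to 1.32. AT1G21313 had 18.9, 95.9 and 93.2 TPM in replicates 1, 2 and 3. Several of these 8 are known response genes. Lists of 14 low-oxygen, 8 cold and 8 salicylic acid response genes were written after the most variable genes were seen, so their counts below describe and do not test, and genes of these lists were named after their values were seen.

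Low-oxygen response genes were lowest in replicate 3, in 14 of 14 genes of the list, whereas 40.1% of all detected genes were lowest there. ADH1, the alcohol dehydrogenase of fermentation, had 159, 220.1 and 44.5 TPM in replicates 1, 2 and 3. PDC1, the pyruvate decarboxylase before it in the pathway, had 68.6, 85.5 and 18.7 TPM. SUS4, a sucrose synthase, had 58.4, 77.7 and 19.1 TPM, and the haemoglobin gene HB1 121, 121 and 45.6 TPM. The list summed to 807, 945 and 349 TPM, and its median log2 difference of replicate 3 from the mean of the others was -1.34, from -2.08 to -0.19, where the median over all detected genes was -0.04. PDC2, a second pyruvate decarboxylase gene, moved least among those named, with 70.2, 75.5 and 63.7 TPM. Root markers differed by less, with a median log2 difference of -0.37, from -0.77 to 0.06. Of the 13 detected ones, 9 were lowest in replicate 3 and 4 in replicate 1. They summed to 3180, 3555 and 2720 TPM, mostly from PYK10, at 2940, 3203 and 2509 TPM. CASP1, of the root endodermis, had 39.3, 80.7 and 34.9 TPM, so that replicate 2 stood apart. The part of the root markers in the low-oxygen difference was not tested.

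Cold response genes were highest in replicate 3, in 8 of 8 genes, against 21.6% of all detected genes. KIN2 had 529, 543 and 1136 TPM in replicates 1, 2 and 3. COR15A, which protects chloroplast membranes in freezing, had 88.1, 85.1 and 222 TPM, and LTI78 76.2, 79.5 and 216 TPM. The list summed to 1629, 1743 and 3336 TPM, with a median log2 difference of replicate 3 from the mean of the others of 1.08. Replicates 1 and 2 were close to each other in these genes. Salicylic acid response genes were lowest in replicate 1 in 8 of 8 genes, against 41.2% of all detected genes, and highest in replicate 3 in 6 of 8, against 21.6%. PR1, the standard marker of this defence hormone, had 24.3, 68.9 and 106 TPM, and PCC1 119.9, 237 and 355 TPM. The list summed to 234, 441 and 659 TPM. Its 2 members of hormone synthesis and export were flatter: EDS16, the isochorismate synthase, had 15.1, 17.8 and 16.8 TPM and EDS5 9.83, 13.8 and 10.5 TPM.

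**Figure D3:**
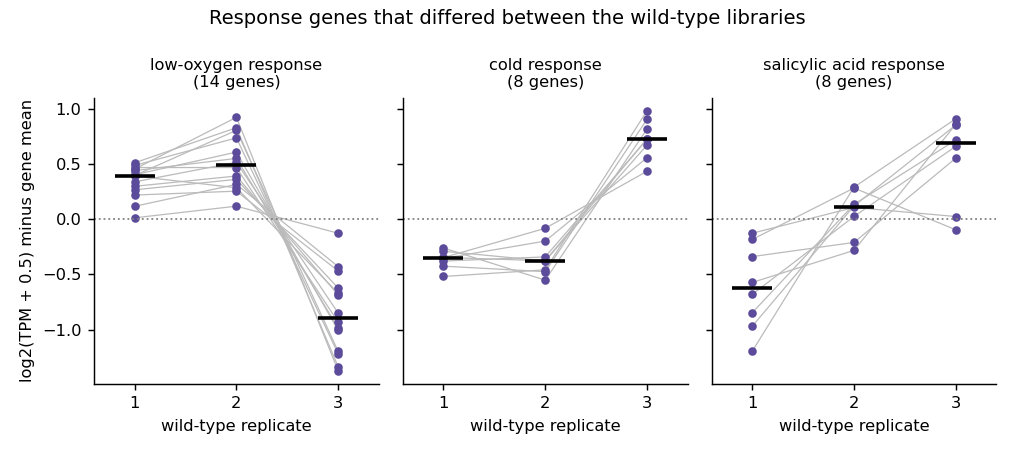
Level of each gene of the 3 response lists in wild-type replicates 1, 2 and 3, as log2(TPM + 0.5) minus the gene's mean; grey lines join the values of 1 gene and black bars are medians. Low-oxygen genes are low in replicate 3, cold genes high in replicate 3, and salicylic acid genes low in replicate 1.

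Photosynthesis genes differed by less and in another library. All 29 photosystem genes, 18 of 20 antenna genes and 14 of 20 carbon fixation genes were lowest in replicate 2, where 18.6% of all detected genes were lowest. Their median log2 difference of replicate 2 from the mean of the others was -0.19 for photosystem, -0.21 for antenna and -0.16 for carbon fixation genes, where all detected genes had 0.07. Root markers were highest in replicate 2 in 12 of the 13 detected genes, against 49.4% of detected genes, and their part in this difference was not tested. Carbon fixation genes were highest in replicate 1 in 19 of 20 cases, against 29.1% of detected genes. Genes whose product is named a ribosomal protein summed to 55254, 48657 and 47559 TPM, or 5.05% of the TPM, and 306 of the 343 detected ones were highest in replicate 1. TPM are shares of a fixed total, so the shifts of different gene sets between libraries are not independent of one another. No label gives a harvest time or batch.

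Of the 20559 detected genes, 7299 (35.5%) have a single isoform in the table and 13260 (64.5%) have several. The single-isoform genes held 35.1% of the TPM and had a median of 1 intron. Among the 13260, an isoform's share is its TPM as a percentage of the gene's TPM, averaged over the libraries. In 6737 genes (50.8%) the leading isoform had a share of at least 90%, called dominant here. In 5496 genes (41.5%) it had from 50% to under 90%, and in 1027 genes (7.75%) no isoform reached 50%. Genes with a dominant isoform held 47.1% of all TPM and genes with no isoform at 50% held 2.46%. Counted in single libraries, 6796, 6855 and 6792 genes had a dominant isoform and 1014, 987 and 973 had none at 50%. The classes have no gap between them: 547 genes lay from 88% to under 90% and 629 from 90% to under 92%, and 144 lay from 48% to under 50% and 178 from 50% to under 52%. The median share of the leading isoform was 90.3%, with quartiles of 72.4% and 97.7%, and it was at least 99% in 2226 genes. The effective number of isoforms, which weighs them by their shares and equals 1 when a single isoform makes up the gene, had a median of 1.43. At a share of at least 10%, 7933 genes (59.8%) used 1 isoform, 4050 used 2, 1000 used 3, 228 used 4, 44 used 5 and 5 used 6. In all, 20195 of the 58593 isoforms of these genes reached that share.

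**Figure D4:**
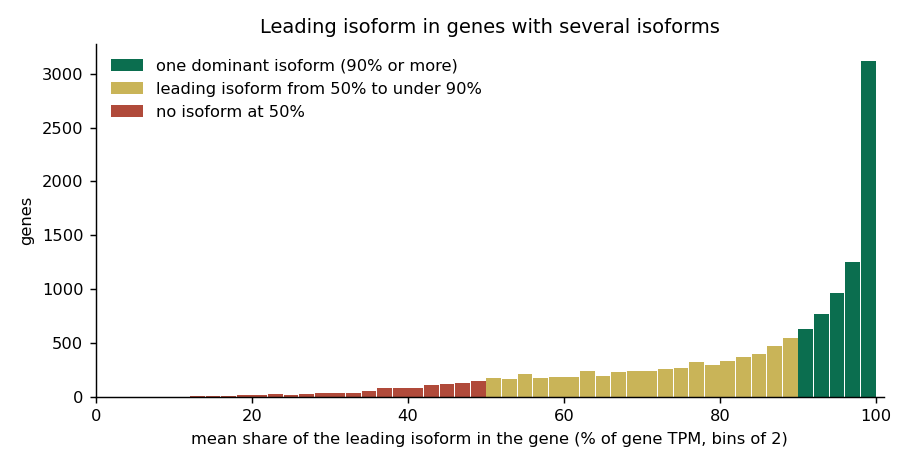
Number of genes by the mean share of their leading isoform, in bins of 2 percentage points, for the 13260 detected genes with several isoforms. The last bin, from 98%, is the tallest with 3120 genes, 6737 genes lie at 90% or more and 1027 below 50%.

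The leading isoform was the same in all 3 libraries for 12466 genes (94.0%). That held for 100% of genes with a dominant isoform, which the high share nearly fixes, for 94.5% of the middle class and for 535 of 1027 genes (52.1%) with no isoform at 50%. The 794 genes whose leading isoform differed had a median of 7.97 TPM, against 18.8 TPM for the others, and 12 of them had at least 100 TPM. The class also moved with level and with the number of isoforms in the table. A dominant isoform was found in 40.4% of genes at 1 to 5 TPM, 42.9% at 5 to 20, 56.8% at 20 to 100 and 79.7% at 100 TPM or more. Within genes of 5 or more isoforms the share with a dominant isoform was 8.76% at 1 to 5 TPM and 59.1% at 100 TPM or more. Over all levels it was 77.3% for genes of 2 isoforms, 53.5% for 3 or 4 and 20.4% for 5 or more. Genes with introns had more isoforms: several isoforms were listed for 10.1% of detected genes with no intron, 59.4% with 1 to 3, 83.4% with 4 to 9 and 90.6% with 10 or more. Where several were listed, the share with a dominant isoform was 71.3%, 58.4%, 48.6% and 42.3% in the same order. The table names isoforms with several suffixes, whose meaning is not given in the sources used here. Names in _P were 34.6% of the isoforms and 75.0% of the leading ones, and names in _ID were 24.6% of the isoforms and 4.02% of the leading ones. In 9917 genes (74.8%) the leading isoform was numbered 1 with a dot or _P.

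At 100 TPM or more, 79.7% of all genes with several isoforms had a dominant one. Of the 12 antenna genes with several isoforms 11 had a dominant one, as did 12 of 12 photosystem genes and 9 of 14 carbon fixation genes (64.3%), which all lie above 200 TPM. Of the 206 detected ribosomal protein genes with several isoforms, 166 (80.6%) had a dominant one. The median over the whole ribosomal list of 373 genes was 97.1 TPM, so many lie under 100 TPM. Of all genes with several isoforms at 20 to 100 TPM, 56.8% had a dominant one. No share matched for level was computed. The 10 most abundant genes with a dominant isoform were CAB1, RBCS1A, LHCA4, LHCA1, CAT3, PSBO1, LHCB5, LHCA2, PSBP-1 and PYK10, and in each library the leading isoform had at least 99% of the gene. CAT3, with 6 isoforms in the table, had 99.4% in its leading isoform in all 3 libraries.

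The antenna gene without a dominant isoform was LHCA3, named after its values were seen. Its isoform _P1 had 52.1%, 50.1% and 48.6% of the gene's TPM in replicates 1, 2 and 3, and its isoform numbered 3 with a dot had 47.7%, 49.7% and 51.2%. The leading isoform therefore changed in replicate 3, although neither share moved by more than 4 points. The ubiquitin gene UBQ6 was split in the same way, with 53.8%, 49.4% and 48.7% in its isoform numbered 1. Rubisco activase, whose alternative splicing is known to make a long and a short protein, lay at the edge of its class: isoform _P2 had 49.8%, 49.1% and 50.4% and isoform _P1 41.7%, 40.0% and 40.8%. Both shares were close between libraries.

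The 10 most abundant genes with no isoform at 50% were GRP9, RCA, AT4G13495, GRP23, CHLM, PSRP2, AT4G32060, DRH1, THIC and AT1G08110. GRP9, a glycine-rich protein gene at 2100 ± 177 TPM, had its leading isoform _JC7 at 37.4%, 43.5% and 49.1%. CHLM, a methyltransferase of chlorophyll synthesis, was split between the dot isoform 3 at 46.6%, 46.6% and 44.7% and the dot isoform 1 at 36.3%, 36.9% and 40.2%. THIC, a thiamine synthesis gene whose transcript end is controlled by a riboswitch, had the dot isoform 3 at 39.8%, 43.3% and 38.0%, _P2 at 30.9%, 30.0% and 35.7%, and _P1 at 26.5%, 25.3% and 24.1%. GRP23, with 25 isoforms in the table, had 5 at 10% or more, and 4 of these moved by several points between libraries. The 5 genes at 10 TPM or more with the most isoforms in use were GBF3, a G-box binding factor, AT3G46385, AT1G51270, AT4G07507 and AT4G06701, at 10.5 to 15.9 TPM. In AT3G46385 isoform _JC7 had 3.24%, 28.6% and 33.8% in replicates 1, 2 and 3. That is an SD of 16.3 points, and its mean share of 21.9% was close to the 22.4% of the leading isoform.

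Genes known for alternative splicing had more even isoform use than genes with several isoforms in general. Of the 40 listed genes 39 were detected, and all 39 have several isoforms in the table. Dominant isoforms were found in 2 of 39 (5.13%), SCL30 and PTB3, against 50.8% of all genes with several isoforms. No isoform reached 50% in 14 of 39 (35.9%), against 7.75%. The median effective number was 3.06, against 1.43. Within genes of 5 or more isoforms, 1 of 33 listed genes (3.03%) had a dominant isoform, against 20.4% of 4228, and the median effective number was 3.39, against 2.32. The listed genes of that class also have more isoforms in the table, with a median of 9 against 7. The list was drawn from genes already known for several isoforms, so this is a description.

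Among splicing regulators, U1-70K, a core protein of the U1 snRNP whose transcript is known to retain an intron, showed steady shares at 63.1 TPM. Its isoform _P1 had 58.2%, 59.0% and 58.4%, _s2 25.1%, 26.2% and 24.9%, and the dot isoform 2 15.8%, 13.8% and 14.1%. The SR protein genes were spread widely. SCL30 had 93.2%, 93.3% and 92.3% in isoform _P1, whereas SR34 had 47.8%, 46.0% and 49.1% in its _P1 and 24.5%, 23.3% and 25.4% in _s1. RS31, whose splicing responds to light, had 54.4%, 50.5% and 49.5% in _P1 and 34.1%, 38.9% and 39.9% in _ID2. SCL33 was among the least settled, with isoform _P1 at 20.1%, 30.2% and 3.67% and isoform _ID3 at 16.4%, 8.98% and 33.3%. U2AF65A, a subunit of the factor that binds the 3′ splice site, had 35.0%, 36.6% and 33.3% in _P1, 28.0%, 24.7% and 32.9% in _P3, and 22.3%, 25.1% and 17.9% in _P2. GRP7, which regulates its own splicing, had 71.3%, 72.7% and 68.2% in _P1 and 16.8%, 13.9% and 11.5% in _ID7. Its paralog GRP8, named CCR1 in the annotation, had 56.6%, 60.9% and 56.5% in _P1 and 23.6%, 23.7% and 25.6% in _s1.

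Of flowering and clock genes in the list, MAF1, a flowering repressor also called FLM, had the highest effective number at 11.1, over 34 isoforms in the table. Its leading isoform _P4 had 33.5%, 27.3% and 38.8%. FCA, an RNA-binding flowering regulator, had 71.0%, 73.6% and 63.5% in the dot isoform 2. TOC1 and PRR7, clock genes at 71.1 and 78.8 TPM, had 80.0%, 82.0% and 82.9%, and 36.7%, 39.7% and 43.2%, in their _P1 isoforms. The morning clock genes CCA1 and LHY were low, at 7.78 and 1.42 TPM. CCA1 had 83.8%, 91.5% and 88.5% in _P1, while LHY had 56.1%, 19.3% and 10.1% in its _P1, and its leading isoform differed between libraries. The heat factor HSFA2 fell just under the limit at 0.978 TPM, and its shares ran from 0% to 78.8% within isoform _JC3. Over all genes with several isoforms, the median SD of the leading isoform's share was 1.92 points, and it was 0.737 points for dominant isoforms and 5.31 points where no isoform reached 50%.

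**Figure D5:**
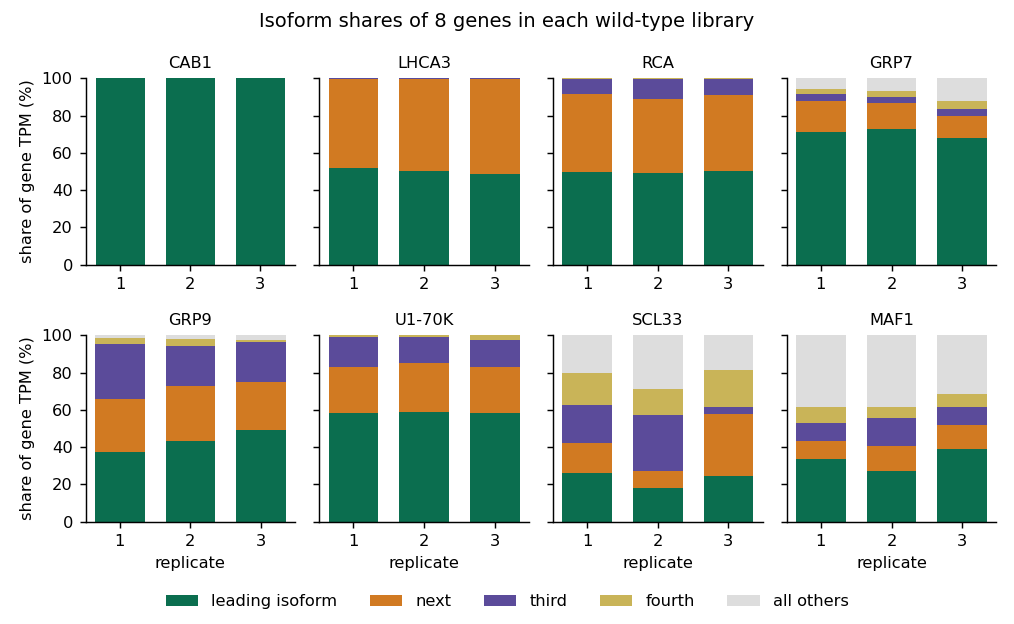
Share of gene TPM (%) taken by the 4 leading isoforms (colours, ordered by mean share) and by all other isoforms (grey) in wild-type replicates 1, 2 and 3 for 8 genes. CAB1 is a single block, the shares of RCA and U1-70K move by less than 3 points, LHCA3 is split almost evenly with a change of leader in replicate 3, and SCL33 and MAF1 are divided and move between libraries.

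Some abundant genes share their position with another gene. Of the 100 most abundant genes 38 overlap another gene of the table in the TAIR10.1 annotation, 4 on the same strand and 35 on the opposite one. The share over all genes was not counted, so this is not read as a trait of abundant genes. AT1G55673 had 1604, 1657 and 1964 TPM in replicates 1, 2 and 3, and all its 479 bases lie within PSAG, a photosystem I subunit gene on the opposite strand with 3266, 2653 and 3211 TPM. AT4G28755, at 1236, 1119 and 1220 TPM, overlaps PSAE-1, another such gene, by 436 of its 752 bases on the opposite strand, and PSAE-1 had 2525, 2136 and 2476 TPM. MT1A, a metallothionein gene with 1059, 1789 and 1613 TPM, lies within AT1G07590 on the same strand, which had 805, 828 and 734 TPM. The most variable gene, AT1G21313, likewise lies within EXT3 on the opposite strand. The kit keeps strand, but whether the quantification used it is not given in the sources used here. How far reads of the opposite-strand pairs were kept apart is therefore not known. Strand cannot separate reads of MT1A and AT1G07590, which lie on the same strand. All of these pairs were named after their values were seen.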

How the data were processed

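Each wild-type library was measured as TPM per isoform, as deposited by the authors in 1 table whose column names, per the file headers, include the word kallisto, a transcript quantifier. Neither its version, the transcript annotation nor the strand setting is given in the sources used here. The submitters' processing notes name the build TAIR10 and Trimmomatic, TopHat2, featureCounts and DESeq2, without roles. Of 15 value columns, the 3 named for Col were taken as wild type by name and number, and 12 were not used. Each sums to 1000000, so depth and counting error are unknown.

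Isoform TPM were summed by the identifier before the first dot or low line, with Python 3.11.15, pandas 2.3.3 and numpy 2.4.6, and drawn with matplotlib 3.10.9. The detection limit was a mean of 1 TPM, a spread was the SD of log2(TPM + 0.5), and the effective isoform number was the exponential of the Shannon entropy of the mean shares. The steps were tested on simulated data. With 1 group there is no contrast, and no test was run. Names, positions and promoter sequences come from RefSeq's annotation of TAIR10.1, which names 33437 of the genes. Named are the 20 most abundant genes, the 3 highest and 2 lowest of each list, the 10 most abundant genes of the 2 extreme isoform classes, the 5 with most isoforms in use, the splicing list, the 8 most and 8 least variable genes, and those said to be named after their values were seen, which include every gene of the 3 response lists and of the comparisons within families. The members and lists were chosen with earlier results of these data known. Alternatives were other limits, other shares, pseudocounts, leaving out organelle genes and leaving out each library.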

Additional observations from a re-analysis of the deposited data

How the results depend on the processing

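Leaving out each library in turn gave a median SD between libraries of 0.0830 to 0.102 on the log2 scale, against 0.112 with all 3, and 0.0866 with no limit on level. A median SD of 2 values tends to be lower than one of 3, so this fall is not read as the effect of a library. The value with no limit includes the 7450 genes listed at 0 in all 3 libraries, whose SD is 0. The median effective isoform number was 1.426 to 1.431 without 1 library, against 1.433, and 1.4 and 1.36 in genes of at least 5 and 10 TPM. Genes with no isoform at 50% numbered 620 at a limit of 10 TPM, 628 when the condition had to hold in each library, and 443 and 1933 when the limit was a share of 40% and 60%, against 1027. Genes with a dominant isoform numbered 10245 when that meant 70%, against 6737. They numbered 8856 at a share of 0.8 and 4890 at a share of 0.95. The lower counts at 10 TPM come with fewer genes, 9184 against 13260. In all, 39 recomputed values stayed within 1.5 times the value reported or within its spread, including the counts at shares of 0.8 and 0.95. Among them, leaving out 1 library gave 20504 to 20614 detected genes and 6743 to 6784 genes with a dominant isoform. Genes with none at 50% then numbered 1005 to 1052, and 12665 to 12763 had the same leading isoform. The 10 most abundant genes then took 7.68% to 8.37% of TPM. No paired analysis was possible because the values describe 1 group and come from no test. Shares of similar isoforms are estimates, and their depth is unknown.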

Other observations

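Outside the protein-coding genes, the table lists classes of short or non-coding RNA. Of 70 genes annotated as small nucleolar RNAs, which guide modification of ribosomal RNA, 42 reached 1 TPM, with a summed mean of 1700 TPM. Of 171 microRNA genes, read here as their longer precursors, 61 did, summing to 935 TPM. Of 221 long non-coding RNA genes 154 reached 1 TPM. Transfer RNA genes did so in 48 of 620 cases. Pseudogenes annotated as transcribed did so in 136 of 919 cases, against 107 of 3892 other pseudogenes. A TPM of a short RNA in a library made for messenger RNA rests on few positions, so these are values as listed.

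The share of genes at 1 TPM or more ran from 55.1% on chromosome 2 (3103 of 5637) to 63.3% on chromosome 1 (5437 of 8591). Of the plastid genes 94 of 133 reached 1 TPM and of the mitochondrial genes 36 of 143.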
